A study of Homo sapiens with 12 samples.

Results

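The interaction of 1,25(OH)2D3, the active hormone form of vitamin D, with Wnt3A was measured as the part of the combined response that the single responses do not sum to. It was computed for each gene on the log2 scale as the change with both agents against vehicle, minus the change with 1,25(OH)2D3 alone, minus the change with Wnt3A alone. A positive value places the combined treatment above the sum of the single changes, and a negative value places it below. Changes and interactions are log2 values throughout. All 12 libraries of the series entered, and 12216 of the 21893 genes in the table passed the filter on low counts and were tested. The cells were CCD-18Co, an established line of human normal colon myofibroblasts, grown with foetal bovine serum. They received Wnt3A with 1,25(OH)2D3 (W3AVD), 1,25(OH)2D3 alone (VD), Wnt3A alone (W3A) or the matching vehicles, ethanol and bovine serum albumin, for 24 h, at 100 nM 1,25(OH)2D3 and 100 ng/ml Wnt3A. Each of these 4 groups had 3 libraries, 1 from each of 3 independent experiments, so the values describe 1 line at 1 dose of each agent and 1 time.

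1,25(OH)2D3 binds the vitamin D receptor (VDR), a nuclear receptor that pairs with RXR on DNA and raises or lowers transcription of nearby genes. Wnt3A binds Frizzled and LRP co-receptors, which stabilises β-catenin and lets it join TCF/LEF factors at target genes. In the gut, fibroblasts under the epithelium are a source of Wnt ligands, matrix and cytokines, and the study asked how these cells respond when both signals are present.

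Library totals lay between 5363668 and 6261100 read equivalents, which are deposited values divided by the read length of 40 bases, and levels are given as CPM, counts scaled to a common library total. The 16 fibroblast markers summed to 36700 to 42700 CPM in every library. The 15 epithelial markers summed to 26.7 to 37.7 CPM, mostly *KRT18* (27.6 CPM), with 4 at 0 reads and *EPCAM* at 0.0874 CPM. The 11 leukocyte markers summed to 167 to 205 CPM, mostly *CD68* (184 CPM), with 5 at 0 reads and *PTPRC* at 0.0982 CPM. The 10 endothelial markers summed to 14 to 33.9 CPM, mostly *TEK* (12.4 CPM), with *PECAM1* at 0.114 CPM. Smooth muscle markers summed to 752 to 1080 CPM, with *ACTG2* at 496 CPM and *MYH11* at 0.612 CPM, and neural markers to 129 to 175 CPM, with *UCHL1* at 141 CPM and *SOX10* at 0.0133 CPM. The part of these cell types in the results was not tested. The vehicle library of experiment 1 stood apart in its ribosomal protein genes, whose median was 7.27 on the log2 CPM scale, against 6.78 to 6.99 in the other 11 libraries. Calls, and the medians of some lists that moved with it, are also given without it.

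The combined change lay close to the sum of the single changes for most genes. At an adjusted p under 0.05, edgeR's quasi-likelihood test with the experiment as a block called 18 genes (0.147% of those tested), 14 above the sum (0.115%) and 4 below (0.0327%). The same threshold called 33.4% of the tested genes for both agents against vehicle, 24.2% for 1,25(OH)2D3 alone and 13.5% for Wnt3A alone. The interaction is estimated less precisely, with a median SE of 0.14, against 0.069 for each agent's average effect with and without the other. Its median absolute estimate was 0.096, against 0.13 for the average effect of 1,25(OH)2D3 and 0.096 for that of Wnt3A. Estimation error adds to such absolute values, and more so for the interaction. They do not show that interactions were as large as the effects of Wnt3A. The gap in calls goes with the lower precision as well, so it is not a measure of size alone. In the presence of 1,25(OH)2D3, 7.71% of genes rose and 7.12% fell with Wnt3A. At an unadjusted p under 0.05 the interaction reached 708 genes (5.8%), 324 above (2.65%) and 384 below (3.14%). None of the 18 called genes departed from the sum by more than 1 on the log2 scale, while 61 tested genes without a call did. The departures above ranged between 0.35 and 0.81, and those below between -0.46 and -0.35.

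A missing call does not by itself show that the responses added up, so the 95% interval of each interaction was used to bound it. The whole interval lay within 1 log2 unit of zero for 89.7% of tested genes and within 0.5 for 65%. Among the 5826 genes called for the average effect of either agent, the shares were 94.2% and 74.4%. Precision followed the level: above 100 CPM, 99.2% of genes had an interval within 0.5 of zero, whereas at 1 to 10 CPM 0.95% did and 55% lay within 1. Departures of 1 log2 unit in genes of low abundance were thus often not detectable at this depth.

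The 3 experiments share no library, and each gives its own interaction. Across all tested genes these values were nearly unrelated, with Pearson r of -0.00456 between experiments 1 and 2, 0.0175 between 1 and 3 and 0.0614 between 2 and 3. Among the 9477 genes of at least 10 CPM, r was -0.0105, 0.0169 and 0.129 for the same pairs. These correlations are across genes, which are not independent replicates. All 18 called genes had the same direction in the 3 experiments, against 26.5% of all tested genes, but the call itself draws on those experiments.

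**Figure D1:**
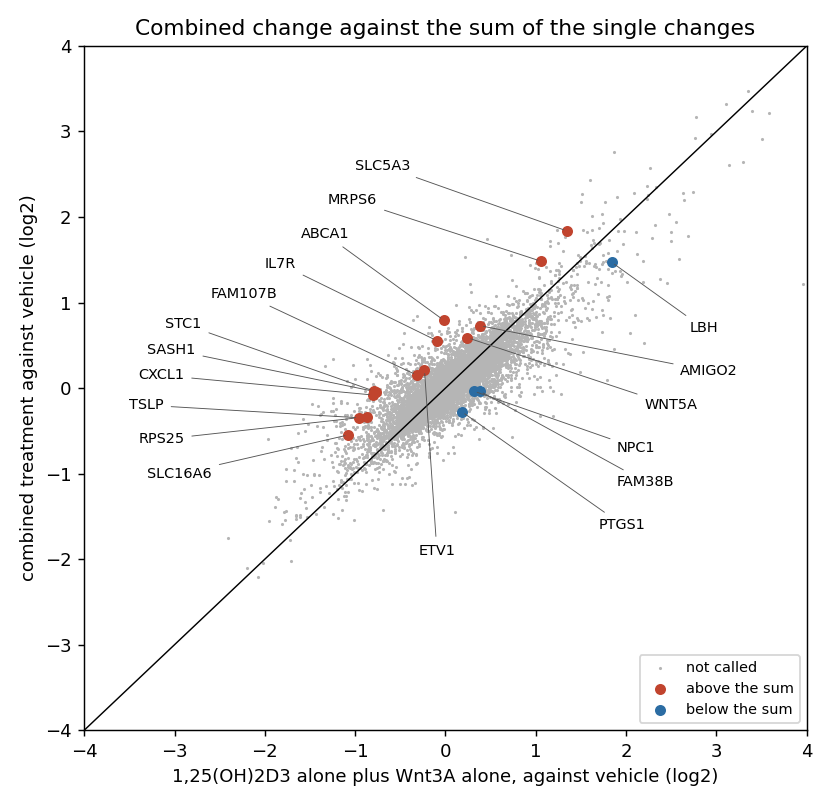
Each point is a gene, with the sum of the changes under 1,25(OH)2D3 alone and Wnt3A alone on the x axis and the change under the combined treatment on the y axis, both log2 against vehicle. The line marks an exact sum. The 14 genes called above the sum (red) and the 4 called below (blue) lie within 0.81 log2 units of it. Both axes stop at 4, which leaves 9 genes outside, and both quantities use the same vehicle libraries.

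**Figure D2:**
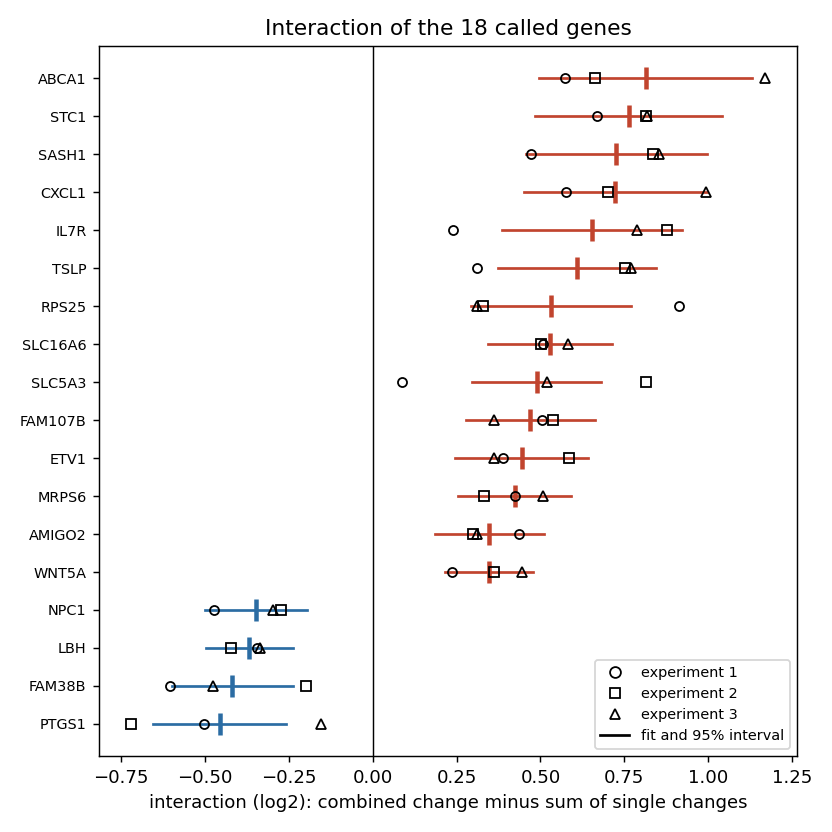
Interaction (log2) of the 18 called genes, with the fitted value and its 95% interval (coloured) and the value of each experiment alone (open symbols). Every open symbol lies on the same side of zero as its fit. *SLC5A3*, *IL7R* and *RPS25* differ most between experiments, with experiment 1 at 0.088 for *SLC5A3*, 0.24 for *IL7R* and 0.91 for *RPS25*.

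A first group of genes rose with the combination beyond what either agent did alone. *WNT5A* encodes a Wnt ligand that mostly acts without β-catenin. *WNT5A* had 689, 679 and 745 CPM with both agents, 453, 425 and 478 CPM with 1,25(OH)2D3, 600.1, 539.9 and 582 CPM with Wnt3A and 466, 433 and 507 CPM with vehicle. The W3AVD libraries were the 3 highest, the W3A libraries came next, and the VD and vehicle libraries overlapped. 1,25(OH)2D3 had no called effect on *WNT5A* alone (-0.052 on the log2 scale, adjusted p = 0.466) and raised it by 0.30 when Wnt3A was present (adjusted p = 8.91e-07). The interaction was 0.35 (SE 0.065, adjusted p = 0.00502).

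*IL7R* encodes the receptor subunit that interleukin 7 and thymic stromal lymphopoietin share. *IL7R* had 50.8, 49 and 63.2 CPM with both agents, 40.8, 31.2 and 49.5 CPM with 1,25(OH)2D3, 29.1, 30.1 and 35.4 CPM with Wnt3A and 27.6, 35.3 and 48 CPM with vehicle. Neither single treatment reached the threshold against vehicle (1,25(OH)2D3 0.13, adjusted p = 0.351; Wnt3A -0.23, adjusted p = 0.129), while the combination raised the gene by 0.56 (adjusted p = 1.23e-06). The W3AVD libraries were highest within each experiment, but the groups overlapped across experiments, since experiment 3 was higher throughout. The interaction was 0.65 (SE 0.13, adjusted p = 0.0111), with 0.24, 0.88 and 0.79 in experiments 1, 2 and 3.

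*MRPS6*, a protein of the small mitochondrial ribosomal subunit, and *SLC5A3*, the cotransporter that brings myo-inositol into cells, rose with 1,25(OH)2D3 and rose further when Wnt3A was added. *MRPS6* had 254, 256 and 237 CPM with both agents, 193, 184 and 164 CPM with 1,25(OH)2D3, 97.2, 91.3 and 88.7 CPM with Wnt3A and 99, 82.3 and 87 CPM with vehicle. *SLC5A3* had 371, 484 and 451 CPM with both agents, 259, 268 and 322 CPM with 1,25(OH)2D3, 126, 131 and 143 CPM with Wnt3A and 93.6, 127 and 146 CPM with vehicle. For both genes the W3AVD libraries lay above all others, the VD libraries came next, and the W3A and vehicle libraries overlapped. Wnt3A alone changed *MRPS6* by 0.049 (adjusted p = 0.725) and *SLC5A3* by 0.13 (adjusted p = 0.274). In the presence of 1,25(OH)2D3 it raised them by 0.47 (adjusted p = 4.34e-10) and 0.62 (adjusted p = 2.75e-10). The interactions were 0.42 (SE 0.084, adjusted p = 0.00865) for *MRPS6* and 0.49 (SE 0.095, adjusted p = 0.0111) for *SLC5A3*, and the second was 0.088, 0.82 and 0.52 in the 3 experiments.

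These neighbours are not independent measurements. In the GENCODE annotation of GRCh37 they lie on the same strand of chromosome 21, *MRPS6* at 35445524 to 35515334 and *SLC5A3* at 35445878 to 35478559, and their exons share 265 bases, so reads there could be split between them. RefSeq gives both genes the same start site, and the window from 250 bases before to 50 bases after it is printed here because the pair moved together. It lies on the plus strand at chr21:34073328-34073627 of GRCh38.p14, and holds none of the strings searched for below, so no base is in capitals.
MRPS6 and SLC5A3: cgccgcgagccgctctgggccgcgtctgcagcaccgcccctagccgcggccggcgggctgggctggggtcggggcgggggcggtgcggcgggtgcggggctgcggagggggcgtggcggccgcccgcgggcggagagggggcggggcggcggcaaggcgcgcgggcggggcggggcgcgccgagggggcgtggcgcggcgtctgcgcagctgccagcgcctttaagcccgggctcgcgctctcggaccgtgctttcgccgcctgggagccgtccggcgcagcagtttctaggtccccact

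In a second group, a lowering by Wnt3A was smaller or missing when 1,25(OH)2D3 was present. *CXCL1* encodes a chemokine that attracts neutrophils. *CXCL1* had 46.4, 38.7 and 26.7 CPM with both agents, 56.3, 47.4 and 30.7 CPM with 1,25(OH)2D3, 27.8, 21.7 and 10.6 CPM with Wnt3A and 50.5, 43.5 and 24.8 CPM with vehicle. Within each experiment the W3A library was the lowest of the 4, although levels differed so much between experiments that the groups overlapped. Wnt3A changed *CXCL1* by -0.98 alone (adjusted p = 2e-11) and by -0.26 in the presence of 1,25(OH)2D3 (adjusted p = 0.0335). The interaction was 0.72 (SE 0.14, adjusted p = 0.00502), with 0.58, 0.70 and 0.99 in the 3 experiments.

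*ABCA1*, which exports cholesterol from cells, had the largest departure of the called genes. *ABCA1* had 46, 44.6 and 42.1 CPM with both agents, 38.7, 39.5 and 43.5 CPM with 1,25(OH)2D3, 16.4, 18.6 and 12.5 CPM with Wnt3A and 20.7, 26.2 and 29.4 CPM with vehicle. The W3A libraries lay below the vehicle libraries, and the W3AVD and VD libraries, which overlapped, lay above both. Wnt3A changed the gene by -0.69 against vehicle (adjusted p = 3.2e-05) and by 0.12 in the presence of 1,25(OH)2D3 (adjusted p = 0.484). Read the other way, 1,25(OH)2D3 raised it by 0.67 alone and by 1.48 with Wnt3A, and the interaction was 0.81 (SE 0.16, adjusted p = 0.00718).

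*SASH1*, a scaffold protein with SH3 and SAM domains, fell with each agent and was near the vehicle level with both. *SASH1* had 31.7, 32.7 and 36.9 CPM with both agents, 26.3, 23.8 and 24.8 CPM with 1,25(OH)2D3, 29.9, 25.2 and 30.2 CPM with Wnt3A and 34.6, 32.9 and 37 CPM with vehicle. The W3AVD libraries overlapped those of vehicle, and the VD and W3A libraries were lower than all vehicle libraries. Each agent changed sign with the other present: 1,25(OH)2D3 gave -0.48 alone (adjusted p = 0.000113) and 0.25 with Wnt3A (adjusted p = 0.0483), and Wnt3A gave -0.29 alone (adjusted p = 0.0248) and 0.44 with 1,25(OH)2D3 (adjusted p = 0.000615). The interaction was 0.73 (SE 0.14, adjusted p = 0.00502).

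*TSLP*, the cytokine thymic stromal lymphopoietin, and *RPS25*, a protein of the small cytosolic ribosomal subunit, also fell with each agent and fell no further with both. *TSLP* had 50.8, 55.4 and 54 CPM with both agents, 53.7, 45.7 and 39.3 CPM with 1,25(OH)2D3, 60.2, 46.3 and 49.5 CPM with Wnt3A and 79, 64.7 and 61.8 CPM with vehicle. Its combined change was -0.35 (adjusted p = 0.000392), against -0.56 with 1,25(OH)2D3 and -0.39 with Wnt3A, and the interaction was 0.61 (SE 0.12, adjusted p = 0.00643). *RPS25* had 61.7, 52.8 and 47.5 CPM with both agents, 56.8, 47.2 and 47.4 CPM with 1,25(OH)2D3, 48.5, 56.3 and 46.2 CPM with Wnt3A and 84.4, 63.3 and 57.3 CPM with vehicle. The vehicle library of experiment 1 was the highest of the 12 for both genes, and all 3 vehicle libraries were above the rest for *TSLP* but overlapped the W3AVD libraries for *RPS25*. The interaction of *RPS25* was 0.53 (SE 0.12, adjusted p = 0.0307), with 0.91, 0.33 and 0.31 in the 3 experiments, and without that vehicle library it was 0.41 and lost its call (adjusted p = 0.2). *TSLP* kept its call without it. Ribosomal protein genes have processed copies elsewhere in the genome, so reads of *RPS25* may have been split.

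Further genes fell with 1,25(OH)2D3 and rose with Wnt3A, and the combination lay above the sum. *SLC16A6*, a member of the monocarboxylate transporter family, had the smallest p of all genes. *SLC16A6* had 115, 109.9 and 111 CPM with both agents, 59.5, 51.6 and 51 CPM with 1,25(OH)2D3, 221, 229 and 254 CPM with Wnt3A and 162, 152 and 176 CPM with vehicle. All 4 groups were separate, with W3A highest, then vehicle, W3AVD and VD. 1,25(OH)2D3 gave -1.59 alone and -1.07 with Wnt3A, Wnt3A gave 0.52 alone and 1.05 with 1,25(OH)2D3, and the interaction was 0.53 (SE 0.092, adjusted p = 0.00372).

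*STC1*, the secreted glycoprotein stanniocalcin 1, which takes part in calcium and phosphate balance, also answered the agents in opposite directions. *STC1* had 498, 398 and 450.2 CPM with both agents, 166, 119.9 and 143 CPM with 1,25(OH)2D3, 801, 790.3 and 947 CPM with Wnt3A and 425, 420.0 and 532 CPM with vehicle. The W3AVD and vehicle libraries overlapped, the W3A libraries were above and the VD libraries below all others. Its combined change was -0.033 (adjusted p = 0.819), against -1.68 for 1,25(OH)2D3 and 0.88 for Wnt3A, and the interaction was 0.76 (SE 0.13, adjusted p = 0.0431). On the linear CPM scale *STC1* lay below the sum by 81.6 CPM and *SLC16A6* below it by 13.02 CPM, so for these genes the direction holds on the log2 scale alone. The other 16 called genes had the same sign on both scales.

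*ETV1*, an ETS family transcription factor, *FAM107B* and *AMIGO2*, a cell adhesion protein with immunoglobulin-like repeats, completed this group. *ETV1* had 92.8, 84.5 and 96.1 CPM with both agents, 48.3, 41.3 and 54.2 CPM with 1,25(OH)2D3, 106, 105 and 119 CPM with Wnt3A and 72.2, 77.3 and 86.2 CPM with vehicle. *FAM107B* had 111, 98.2 and 94.8 CPM with both agents, 68.7, 56.4 and 61.4 CPM with 1,25(OH)2D3, 112, 95.3 and 116 CPM with Wnt3A and 98.1, 79.7 and 96.3 CPM with vehicle. *AMIGO2* had 223, 188 and 249 CPM with both agents, 104, 91.5 and 129 CPM with 1,25(OH)2D3, 218, 191 and 225 CPM with Wnt3A and 138, 114 and 145 CPM with vehicle. The VD libraries were below all others for *ETV1* and *FAM107B* and overlapped the vehicle libraries for *AMIGO2*. The W3AVD libraries overlapped those of W3A for *FAM107B* and *AMIGO2*, and those of vehicle for *ETV1* and *FAM107B*. 1,25(OH)2D3 lowered *FAM107B* (log2 -0.55) and *AMIGO2* (log2 -0.29) alone, and had no called effect on them with Wnt3A (log2 -0.085 and 0.054, adjusted p = 0.379 and 0.521). The interactions were 0.44 (SE 0.10, adjusted p = 0.0285) for *ETV1*, 0.47 (SE 0.10, adjusted p = 0.0111) for *FAM107B* and 0.35 (SE 0.081, adjusted p = 0.0499) for *AMIGO2*, the last at the edge of the threshold. Just outside it lay *TNFRSF11B* (0.29, adjusted p = 0.0515), *SOBP* (0.84, adjusted p = 0.0599) and *BCAT1* (0.33, adjusted p = 0.0603).

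The 4 genes below the sum all rose with 1,25(OH)2D3, and the change was smaller in the presence of Wnt3A. *LBH*, a transcriptional regulator named for limb bud and heart, was raised by both agents. *LBH* had 1563, 1584 and 1461 CPM with both agents, 1375, 1443 and 1255 CPM with 1,25(OH)2D3, 884, 845 and 709 CPM with Wnt3A and 612, 574 and 482 CPM with vehicle. The W3AVD libraries were the 3 highest, followed by the VD, W3A and vehicle libraries, with no overlap between the groups. Wnt3A raised *LBH* by 0.55 alone and by 0.18 in the presence of 1,25(OH)2D3 (adjusted p = 0.00247), and the interaction was -0.37 (SE 0.065, adjusted p = 0.00372).

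*PTGS1*, the cyclooxygenase that makes prostaglandin H2 constitutively, responded to the agents in opposite directions. *PTGS1* had 110.0, 73.3 and 94.8 CPM with both agents, 241, 202 and 234 CPM with 1,25(OH)2D3, 76.8, 54.7 and 56.4 CPM with Wnt3A and 119, 91.4 and 125 CPM with vehicle. The VD libraries were far above the rest, and W3AVD libraries overlapped those of vehicle and W3A. 1,25(OH)2D3 raised it by 1.02 alone and 0.56 with Wnt3A, and the interaction was -0.46 (SE 0.10, adjusted p = 0.026), with -0.50, -0.72 and -0.16 in the 3 experiments.

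*NPC1*, which moves cholesterol out of lysosomes, and *FAM38B*, an older symbol of the mechanosensitive channel gene PIEZO2, followed. *NPC1* had 197, 211 and 207 CPM with both agents, 300.5, 335 and 338 CPM with 1,25(OH)2D3, 174, 164 and 168 CPM with Wnt3A and 190.3, 216 and 224 CPM with vehicle. *FAM38B* had 102, 121 and 84.8 CPM with both agents, 153, 164 and 137 CPM with 1,25(OH)2D3, 94.7, 106 and 83.8 CPM with Wnt3A and 93.4, 125 and 97 CPM with vehicle. In both, the VD libraries lay above all others, and the W3AVD and vehicle libraries overlapped. The effect of 1,25(OH)2D3 on *FAM38B* was 0.53 alone and 0.11 with Wnt3A, where it missed the threshold (adjusted p = 0.239). Wnt3A gave -0.31 alone and -0.66 with 1,25(OH)2D3 for *NPC1*, and -0.15 and -0.57 for *FAM38B*. The interactions were -0.35 (SE 0.076, adjusted p = 0.026) for *NPC1* and -0.42 (SE 0.09, adjusted p = 0.0234) for *FAM38B*.

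The next genes below the sum by p did not pass the threshold. They were the glucose transporter gene *SLC2A1* (-0.27, 95% interval -0.40 to -0.14), *LIMCH1* (-0.30, 95% interval -0.45 to -0.15), *CHN1* (-0.42, 95% interval -0.63 to -0.20), *GPRC5B* (-0.44, 95% interval -0.67 to -0.22), the hypoxia-responsive *NDRG1* (-0.31, 95% interval -0.48 to -0.15) and the Hedgehog pathway transcription factor *GLI3* (-0.49, 95% interval -0.75 to -0.23), with adjusted p between 0.0784 and 0.148. *GPRC5B* shares 26.7% of its exonic bases with *IQCK* on the opposite strand. *SLC16A6*, *NPC1*, *RPS25* and *AMIGO2* overlap a coding gene on the opposite strand over 3.1% to 6.38% of their exonic bases. The library kit keeps strand, but whether counting used it is not given in the sources used here.

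**Figure D3:**
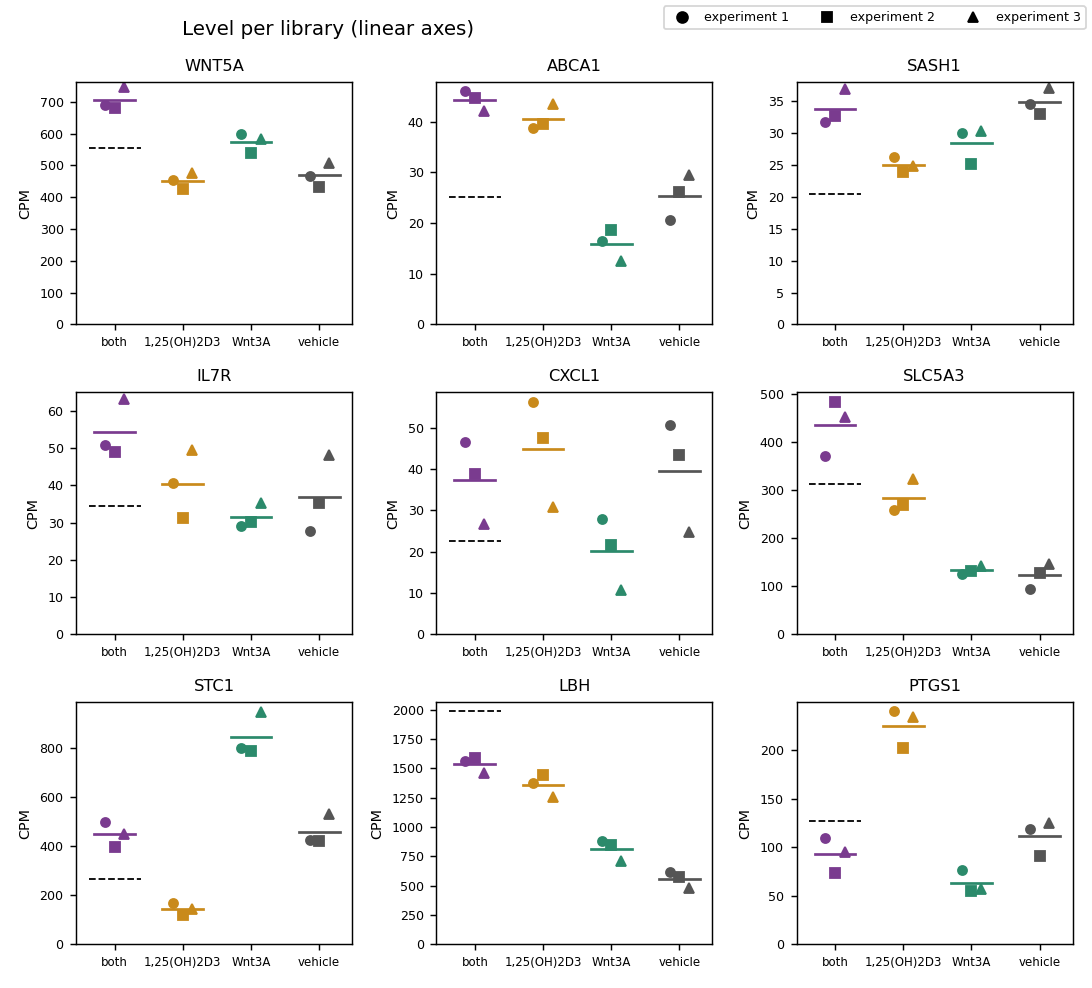
CPM in each library for 9 called genes (linear axes from 0), with groups in the order both agents, 1,25(OH)2D3, Wnt3A and vehicle. Symbols mark the experiment, solid lines the group mean, and the dashed line over the combined treatment is the level that the sum of the single log2 changes would give. The combined libraries lie above that line for *WNT5A*, *ABCA1*, *SASH1*, *IL7R*, *CXCL1*, *SLC5A3* and *STC1*, and below it for *LBH* and *PTGS1*.

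The number of calls depended on the model. Without the block for experiment 0 genes were called, with 354 (2.9%) at an unadjusted p under 0.05. With the block, limma-voom called 17 genes, 16 of them among the 18, and DESeq2 called 5, of which *SLC16A6*, *LBH*, *WNT5A* and *STC1* were among the 18. When 1 library was left out in turn, *SLC16A6*, *LBH*, *CXCL1* and *SASH1* kept their calls in all 12 fits, *MRPS6*, *WNT5A* and *TSLP* in 11 and *ABCA1* in 10. *FAM107B* and *STC1* kept theirs in 9, *IL7R* in 8, *SLC5A3* in 7 and *ETV1* in 6. *RPS25*, *AMIGO2*, *FAM38B* and *PTGS1* were called in 4 of the 12 fits and *NPC1* in 3, so of the genes below the sum only *LBH* did not depend on single libraries. The 18 genes kept their directions in all 12. They were chosen by their call and had 1 direction in each experiment, so fits that reuse these libraries could hardly reverse it. Without experiment 2, 0 genes were called by edgeR from the 8 remaining libraries, with 554 (4.53%) at an unadjusted p under 0.05. Without the vehicle library of experiment 1, 25 genes were called and 13 of the 18 remained, while *RPS25*, *AMIGO2*, *FAM38B*, *NPC1* and *PTGS1* did not.

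Genes were next grouped by the direction of each agent's average effect, taken over its 2 comparisons with and without the other agent, a measure that is orthogonal to the interaction in this balanced design. The 464 genes that were on average higher with 1,25(OH)2D3 and lower with Wnt3A had a median interaction of -0.048, and 63.4% of them lay below zero, against 51.3% of all tested genes. The 3 experiments alone gave medians of -0.086, -0.017 and -0.043. The mirror group of 282 genes, lower with 1,25(OH)2D3 and higher with Wnt3A, had a median of 0.037, with 60.6% above zero against 48.7% of all genes, and 0.044, 0.019 and 0.025 in the experiments. In DESeq2 on the undivided values the medians were -0.11 for the first group and -0.097 for the mirror group, which turned its direction. These shifts were small beside the median SE of 0.14 for a single gene, and without the W3A library of experiment 1 the first was -0.0018. The 364 genes higher with both agents had a median of 0.0034 and the 319 genes lower with both had 0.0061, each with experiments on either side of zero.

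By function, 72 gene lists were read against the all-gene median of -0.0039. For 56 of them the median interaction was within 0.05 of that value. Of the rest, 8 lay further away with the same sign in each experiment, 4 above and 4 below, and no list was tested as a set.

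Of 13 tested chemokines 11 (84.6%) lay above zero, against 48.7% of all tested genes, and *CXCL1* was called, where 0.115% of all genes were called above. The chemokine median was 0.27, but 0.42, -0.11 and 0.13 in the experiments. Without the vehicle library of experiment 1 it was 0.11 with 9 of 13 above, and without experiment 1 it was 0.0086 with 7 of 13 above. Of 50 cytokines and cytokine receptors 20 (40%) lay above zero, a smaller share than of all genes, with a median of -0.011, and *TSLP* and *IL7R* were called. Beside *CXCL1*, the neutrophil chemokine *IL8* had an interaction of 0.48 (95% interval 0.18 to 0.78) and the monocyte chemokine *CCL2* one of 0.32 (95% interval 0.13 to 0.51). *IL8* had 24.9, 21.3 and 22.4 CPM with both agents, 39.4, 26.7 and 23.2 CPM with 1,25(OH)2D3, 23.4, 20.2 and 21.6 CPM with Wnt3A and 46.9, 37.4 and 34.2 CPM with vehicle. *CCL2* had 72.6, 61.7 and 67.8 CPM with both agents, 99.8, 76.4 and 84.7 CPM with 1,25(OH)2D3, 113, 101 and 93.5 CPM with Wnt3A and 199, 152 and 145 CPM with vehicle. The vehicle libraries were above all others for *CCL2* and overlapped the VD libraries for *IL8*, and the W3AVD libraries were the lowest for *CCL2* and overlapped those of W3A for *IL8*. Each agent lowered both genes alone, *CCL2* by -0.92 and -0.69 on the log2 scale, and their combined change of -1.29 was smaller than the sum. *IL6*, a proinflammatory cytokine that 1,25(OH)2D3 raised and Wnt3A lowered, had 0.40 (95% interval 0.17 to 0.63), and *TNFRSF11B*, the osteoprotegerin gene, 0.29 (95% interval 0.15 to 0.42). *IL8*, *CCL2*, *IL6* and *TNFRSF11B* each had one sign in the 3 experiments and did not pass the adjusted threshold. Without the vehicle library of experiment 1, the interaction was 0.47 for *IL8*, 0.25 for *CCL2*, 0.28 for *IL6* and 0.30 for *TNFRSF11B*, which then passed the threshold (adjusted p = 0.0119). *CXCL12*, a lymphocyte and stem cell chemokine, lay on the other side (-0.43, 95% interval -0.80 to -0.061).

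Cholesterol genes lay above the sum more often than not. Of 32 tested genes in the list for cholesterol synthesis and uptake, 25 (78.1%) were above zero, against 48.7% of all tested genes. The median was 0.081, with 0.026, 0.069 and 0.13 in the 3 experiments. *HMGCS1*, which makes HMG-CoA on the way to sterols, had an interaction of 0.25 (95% interval 0.059 to 0.44). *HMGCS1* had 108, 109.6 and 102 CPM with both agents, 84.8, 74.7 and 74.9 CPM with 1,25(OH)2D3, 86.9, 86.4 and 86 CPM with Wnt3A and 70.2, 77.5 and 78.7 CPM with vehicle. The W3AVD libraries were the 3 highest, the W3A libraries came next, and the VD and vehicle libraries overlapped. *ABCA1* above and *NPC1* below were the called members, where 0.115% of all genes were called above and 0.0327% below. Both act in cholesterol export or transport rather than in synthesis or uptake.

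Basement membrane, axon guidance and ADAM protease genes had medians on the other side. Of 19 tested basement membrane and laminin genes, 13 (68.4%) were below zero, against 51.3% of all tested genes. Their median was -0.11, with -0.23, -0.055 and -0.06 in the experiments. Of the 19, 5 reached an unadjusted p under 0.05 below the sum, against 3.14% of all genes. The laminin genes *LAMA3* (-0.29, 95% interval -0.47 to -0.12), *LAMC1* (-0.14, 95% interval -0.26 to -0.018) and *LAMB1* (-0.13, 95% interval -0.25 to -0.0047) and the laminin-binding *NID1* (-0.21, 95% interval -0.37 to -0.055) were among them. *LAMA3* had 166, 174 and 131 CPM with both agents, 195, 229 and 195 CPM with 1,25(OH)2D3, 118, 116 and 96.3 CPM with Wnt3A and 109, 136 and 109 CPM with vehicle. The VD libraries were the 3 highest, and the W3AVD libraries lay above those of W3A and overlapped those of vehicle. *LAMA3* rose by 0.80 with 1,25(OH)2D3 alone and by 0.40 with both.

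Among 43 axon guidance genes, which steer cells through ephrin, semaphorin, netrin and Slit signals, 32 (74.4%) were below zero, against 51.3% of all tested genes. Their median was -0.070. The ephrin receptor genes *EPHA4* (-0.39, 95% interval -0.61 to -0.16), *EPHB4* (-0.34, 95% interval -0.55 to -0.12) and *EPHB2* (-0.94, 95% interval -1.63 to -0.25) and the semaphorin receptor gene *PLXND1* (-0.28, 95% interval -0.45 to -0.11) had the smallest p. *EPHA4* had 46.4, 50.9 and 58.2 CPM with both agents, 90.0, 113 and 103 CPM with 1,25(OH)2D3, 30.8, 39.2 and 34 CPM with Wnt3A and 44.8, 53.2 and 58.3 CPM with vehicle. The VD libraries were the highest for *EPHA4*, the W3A libraries the lowest, and those of W3AVD and vehicle overlapped. ADAM and ADAMTS proteases had a median of -0.057, with 14 of 23 (60.9%) below zero, near the 51.3% of all tested genes. The smallest p below was at *ADAMTS9* (-0.33, 95% interval -0.61 to -0.059). The W3A library of experiment 1 weighed on these lists: without it the median was -0.0099 for basement membrane genes, -0.00015 for the proteases and -0.032 for axon guidance.

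The remaining shifted lists had medians above the sum. Histone genes had a median of 0.12 with 16 of 19 (84.2%) above zero, against 48.7% of all tested genes. The smallest p among them was at *HIST1H2BD* (0.92, 95% interval 0.28 to 1.55). Since histone messages mostly lack polyA tails, polyA+ libraries hold few of them. The plasminogen, serpin and coagulation list had 0.064 with 17 of 27 (63%) above zero, against the same 48.7%. In it 1 gene above the sum reached an unadjusted p under 0.05, where 2.65% of all genes did. This was *PLAU*, the urokinase gene (0.12, 95% interval 0.00042 to 0.25). The 7 tested Wnt ligand and secretion genes had a median of 0.13, near that of *WLS*, the Wnt carrier (0.13, 95% interval -0.0023 to 0.27). Without the vehicle library of experiment 1, where 9 members passed the filter, this median was -0.019, and with every gene read in at least 3 libraries it was -0.22.

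Some housekeeping lists moved with 1 library. Cytosolic ribosomal protein genes had 58 of 74 (78.4%) above zero, against 48.7% of all tested genes. Their median interaction was 0.054, but 0.20, -0.038 and -0.020 in experiments 1, 2 and 3. Without the vehicle library of experiment 1 the median was -0.0079, with 35 of 74 above. Nuclear genes of oxidative phosphorylation had 0.057 with all libraries and -0.0084 without it.

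**Figure D4:**
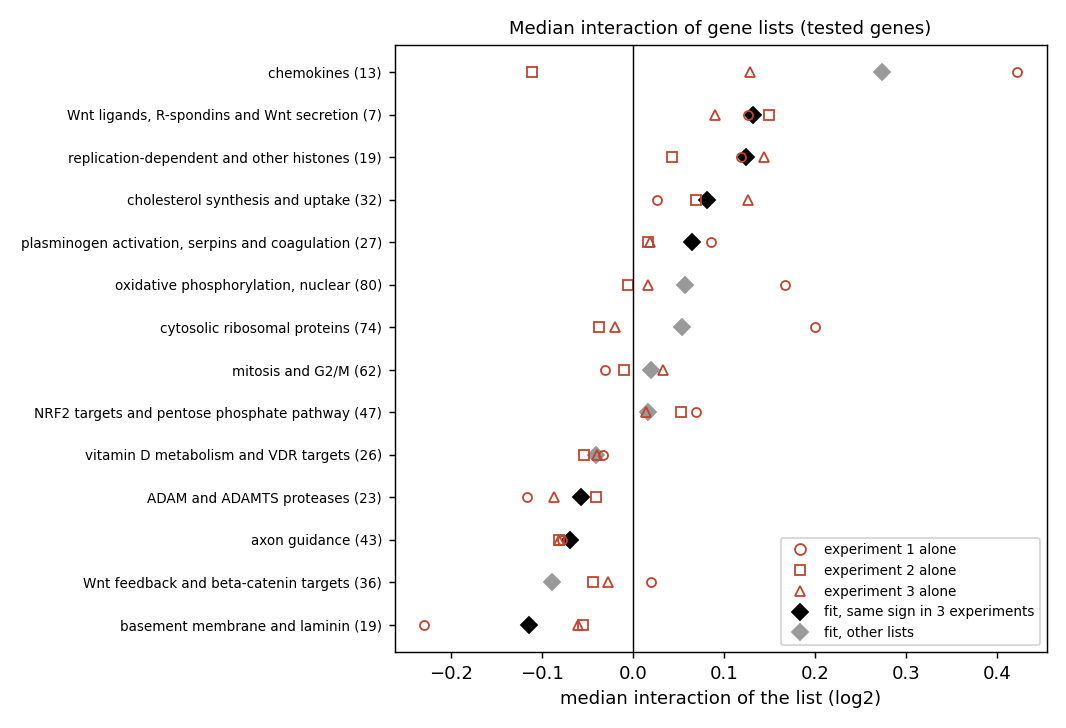
Median interaction (log2) of 14 gene lists, with the number of tested genes in parentheses. Filled diamonds are fitted medians, black where the list lay over 0.05 from the all-gene median with the same sign in the 3 experiments, and open symbols are the medians of single experiments. The axon guidance symbols coincide near -0.08, while chemokines and ribosomal protein genes are spread by experiment 1.

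Among functions that answered to 1 or both agents, mitotic, NRF2 and vitamin D genes had medians within 0.05 of the all-gene value with all libraries. Wnt feedback genes did not. Wnt3A alone raised 54 of 62 mitotic genes, where 7.37% of all tested genes rose. Their median interaction was 0.020, but 0.077 without experiment 1, with 40 of 62 above zero. Wnt3A alone lowered 30 of 47 NRF2 targets and pentose phosphate genes, where 6.18% of all genes fell. 1,25(OH)2D3 alone raised 14 of these 47 and lowered 8, where 13% of all genes rose and 11.2% fell. The median interaction of this list was 0.016. In that list the aldo-keto reductase gene *AKR1B10* stood out with 1.07 (95% interval 0.45 to 1.69), and its adjusted p was 0.27. 1,25(OH)2D3 alone raised 15 of 26 genes of vitamin D metabolism and VDR targets, where 13% of all genes rose. Wnt3A alone lowered 5 of the 26, where 6.18% of all genes fell. The median interaction of the 26 was -0.041, with 0 called by edgeR in either direction and 0 at an unadjusted p under 0.05. Of all tested genes 0.147% and 5.8% were, so counts of 0 among 26 genes are not far from the background. Of 36 genes of Wnt feedback and β-catenin targets, 12 rose with Wnt3A alone and 13 with 1,25(OH)2D3 alone. Of all tested genes 7.37% and 13% did. For the interaction, 25 of the 36 (69.4%) lay below zero, against 51.3% of all tested genes. Their median was -0.089, further from the all-gene median than 0.05, but the experiments differed in sign, with 0.02, -0.043 and -0.028. *DKK1*, a secreted Wnt inhibitor that 1,25(OH)2D3 lowered and Wnt3A raised, lay above the sum (0.40, 95% interval 0.15 to 0.64), in each of the 3 experiments. *DKK1* had 36.1, 34.4 and 37.2 CPM with both agents, 22.5, 19 and 25.4 CPM with 1,25(OH)2D3, 82.4, 67.6 and 91.1 CPM with Wnt3A and 68.9, 54.3 and 73.3 CPM with vehicle. The W3A libraries overlapped those of vehicle, the W3AVD libraries were lower and the VD libraries the lowest.

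Of the genes with the smallest p for an average effect, *APCDD1* and *BCAT1* had interaction intervals above zero, and those of the others included zero. For 1,25(OH)2D3 these included *CYP26B1*, which degrades retinoic acid (0.13, 95% interval -0.078 to 0.33), and the vascular growth factor gene *VEGFA* (-0.039, 95% interval -0.21 to 0.13), beside *TIMP3*, *THBD* and *CYP24A1*, given below. For Wnt3A they were *LPPR4* (0.019, 95% interval -0.27 to 0.30), the scavenger receptor gene *COLEC12* (0.13, 95% interval -0.11 to 0.37), the adhesion gene *CADM1* (-0.12, 95% interval -0.26 to 0.021), *APCDD1* and *BCAT1*, which starts the breakdown of branched-chain amino acids. *BCAT1* lay above the sum, just outside the threshold (0.33, 95% interval 0.17 to 0.48). *BCAT1* had 387, 451 and 405 CPM with both agents, 161, 178 and 159.6 CPM with 1,25(OH)2D3, 219, 248 and 215 CPM with Wnt3A and 99.7, 122 and 122 CPM with vehicle. Its 4 groups did not overlap, with W3AVD highest, then W3A, VD and vehicle.

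As a list, prostaglandin genes were close to the background with all libraries. Of 22 tested genes for synthesis, transport and receptors 12 (54.5%) lay below zero, against 51.3% of all tested genes. The median was -0.032, with 0.082, -0.051 and -0.016 in the experiments. It was -0.083 without the vehicle library of experiment 1 and -0.080 without experiment 1, each with 10 of 22 above zero. *PTGS1* was the called member, where 0.0327% of all genes were called below. *SLCO2A1*, a prostaglandin transporter, had -1.08 (95% interval -1.75 to -0.41). *SLCO2A1* had 5.16, 4.28 and 5.04 CPM with both agents, 3.24, 3.32 and 4.89 CPM with 1,25(OH)2D3, 9.77, 6.38 and 8.63 CPM with Wnt3A and 3.47, 3.04 and 2.66 CPM with vehicle. The W3A libraries were the 3 highest, the W3AVD and VD libraries overlapped, and the vehicle libraries overlapped those of VD. *PTGER4*, a receptor for prostaglandin E2, had -0.26 (95% interval -0.50 to -0.025). Neither passed the threshold, and both had one sign in the 3 experiments.

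The next values are those of 15 genes that had also been followed by RT-qPCR and of 6 control targets of either agent. Of the 15, *AMIGO2* was the called gene, beside 0.147% of all genes. The intervals were narrow for the abundant ones: *TIMP3*, a metalloproteinase inhibitor, had 0.052 (95% interval -0.07 to 0.17), *ANXA1*, annexin A1, -0.011 (95% interval -0.15 to 0.13), and *PGD*, of the pentose phosphate pathway, 0.088 (95% interval -0.055 to 0.23). *TIMP3* had 3609, 3419 and 3229 CPM with both agents, 4444, 3671 and 3715 CPM with 1,25(OH)2D3, 814, 694 and 679 CPM with Wnt3A and 955, 815 and 834 CPM with vehicle. The W3AVD and VD libraries of *TIMP3* were far above the others, with W3AVD just below VD, and those of W3A and vehicle did not overlap either, with vehicle higher.

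*OSR1*, a zinc finger transcription factor, and *NKD2*, a Dishevelled-binding Wnt antagonist, rose with each agent and rose most with both. *OSR1* had 29.5, 32.2 and 31.2 CPM with both agents, 17.4, 15.7 and 14.1 CPM with 1,25(OH)2D3, 7.49, 6.01 and 5.15 CPM with Wnt3A and 2.95, 2.24 and 1.66 CPM with vehicle. *NKD2* had 74, 66.3 and 60.8 CPM with both agents, 29.5, 32.6 and 27.1 CPM with 1,25(OH)2D3, 42.6, 47.6 and 29.4 CPM with Wnt3A and 13.5, 17.3 and 10.5 CPM with vehicle. In both genes the W3AVD libraries were the 3 highest and the vehicle libraries the 3 lowest. The interaction was -0.47 (95% interval -1.05 to 0.12) for *OSR1* and -0.35 (95% interval -0.66 to -0.045) for *NKD2*, so the second interval lay below zero although its adjusted p was 0.787. *WNT16*, a Wnt ligand raised by 1,25(OH)2D3 and lowered by Wnt3A, had -0.23 (95% interval -0.40 to -0.065) with an adjusted p of 0.573. *SLCO2B1*, an organic anion transporter with the same opposite responses, had 0.16 (95% interval -0.0088 to 0.34). For 6 genes with few reads in at least 1 group the intervals were wide. The narrowest was that of *OSR2*, which 1,25(OH)2D3 raised (0.014, 95% interval -0.47 to 0.50). The widest was that of *PKP2*, which Wnt3A raised (-0.65, 95% interval -2.09 to 0.79). Those of *DKK2* (0.30, 95% interval -0.25 to 0.85), *CPLX2* (-0.22, 95% interval -1.23 to 0.80), *ODZ3* (-0.45, 95% interval -1.28 to 0.38) and *ILDR2* (-0.28, 95% interval -1.26 to 0.70), all raised by Wnt3A, were of widths in between. Most departures of the size called elsewhere were not detectable in these genes at this depth.

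Among the control targets, *THBD*, thrombomodulin, had 0.16 (95% interval -0.23 to 0.54), *TCF7*, a TCF/LEF factor, 0.16 (95% interval -0.30 to 0.62), and *AXIN2*, the Wnt feedback inhibitor, -0.36 (95% interval -1.05 to 0.32). *APCDD1*, a membrane inhibitor of Wnt signalling, lay above the sum in each experiment (0.15, 0.37 and 0.75) with 0.40 (95% interval 0.13 to 0.67) and an adjusted p of 0.503. *APCDD1* had 187, 231 and 162 CPM with both agents, 35.8, 38.7 and 20.5 CPM with 1,25(OH)2D3, 113, 124.1 and 67.4 CPM with Wnt3A and 24, 26.8 and 14.3 CPM with vehicle. Within each experiment the combined library was the highest and the vehicle library the lowest. *CYP24A1*, which degrades 1,25(OH)2D3, had 4730 reads over the 3 libraries with both agents and 4337 with 1,25(OH)2D3, against 5 with Wnt3A and 5 with vehicle, and its interval spanned -1.89 to 1.77. *CYP3A4* had 50 reads with both agents and 54 with 1,25(OH)2D3, against 0 with Wnt3A and 0 with vehicle, so no interaction is given. *NKD1* had 37 reads with both agents, 7 with 1,25(OH)2D3 and 29 with Wnt3A, against 1 with vehicle, and none is given for it. For *AXIN2*, 25.3% of exonic bases are shared with an overlapping gene on the same strand.

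**Figure D5:**
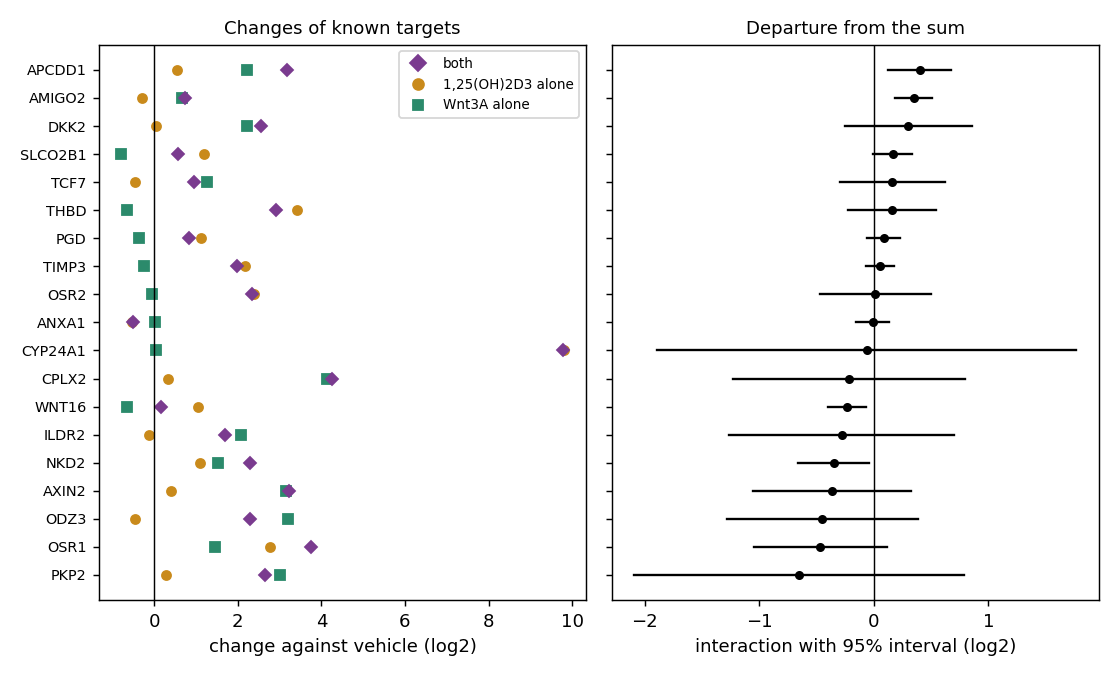
Changes against vehicle (left) and interaction with its 95% interval (right), both log2, for 19 genes followed by RT-qPCR or used as control targets. *CYP3A4* and *NKD1* are left out because a group had 3 or fewer reads. The intervals of *APCDD1* and *AMIGO2* lie above zero, and those of *WNT16* and *NKD2* below.

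Promoter windows of the called genes were searched for short strings related to the binding motifs of the factors that the agents engage. RefSeq gave 34 windows of 300 bases for 16 of the 18 genes (GRCh38.p14). The TCF/LEF strings searched were CTTTGAA and CTTTGTT on either strand. They were in 4 of these windows (11.8%), against 3239 of 35116 windows of all genes (9.22%). Other forms of the TCF/LEF motif were not searched. The second pattern was GGTCA or GTTCA repeated in the same orientation with 3 bases between them on either strand. It was in 0 of the 34, against 0.159% of all windows. This is not the usual VDR/RXR element, whose half-sites are longer and so leave a wider gap between these strings. VDR/RXR elements were thus not searched for. The windows with a TCF/LEF match belong to *TSLP*, *ETV1* and *FAM107B*, and 3 of them are printed with the match in capitals to show its place. They are chr5:111069812-111070111 (plus strand) for *TSLP*, chr7:13991376-13991675 (minus strand) for *ETV1* and chr10:14571950-14572249 (minus strand) for *FAM107B*. Each of these genes has further start sites without a match to the strings searched.
TSLP: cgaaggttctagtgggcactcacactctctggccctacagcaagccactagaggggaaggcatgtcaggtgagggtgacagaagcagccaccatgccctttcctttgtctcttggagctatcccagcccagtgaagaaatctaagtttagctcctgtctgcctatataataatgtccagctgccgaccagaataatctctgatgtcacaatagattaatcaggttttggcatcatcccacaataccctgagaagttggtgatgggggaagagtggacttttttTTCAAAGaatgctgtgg
ETV1: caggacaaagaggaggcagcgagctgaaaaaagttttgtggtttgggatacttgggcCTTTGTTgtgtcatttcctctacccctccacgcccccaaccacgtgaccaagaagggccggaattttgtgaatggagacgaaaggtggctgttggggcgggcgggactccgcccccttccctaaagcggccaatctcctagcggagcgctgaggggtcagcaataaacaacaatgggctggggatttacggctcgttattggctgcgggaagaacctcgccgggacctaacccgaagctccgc
FAM107B: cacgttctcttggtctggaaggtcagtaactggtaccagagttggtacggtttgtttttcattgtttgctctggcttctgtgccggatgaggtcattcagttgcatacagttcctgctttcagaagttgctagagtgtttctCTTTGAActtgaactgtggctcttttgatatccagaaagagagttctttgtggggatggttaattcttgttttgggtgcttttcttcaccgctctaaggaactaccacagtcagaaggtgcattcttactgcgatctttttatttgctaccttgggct
The match begins 33 bases after the start site of *TSLP*, 193 bases before that of *ETV1* and 108 bases before that of *FAM107B*. A match is a string of letters and not evidence of binding.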

How the data were processed

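Single-end reads of 40 bases from polyA+ RNA were processed by the authors with CASAVA 1.8 (ELAND) against GRCh37, and the gene table they deposited holds raw counts, of which 78.24% to 80.91% of the low values (up to 400) are exact multiples of 40. They were therefore taken as aligned bases, and division by 40 with rounding gave read equivalents. Which annotation was counted, and whether by strand, was not given in the sources used here. Each library was assigned by its label to 1 of 4 groups and 3 experiments. Genes passing edgeR's filterByExpr (minimum count 10) were scaled by TMM and fitted with edgeR 4.0.16 (R 4.3.3) by a robust quasi-likelihood model with the experiment as a block and 4 groups, and p-values were adjusted by Benjamini-Hochberg over all 12216 genes. The prior count of fitted log2 values was 0.125, and intervals cover 95%. P-values rest on the spread of libraries left after group and experiment were fitted, moderated across genes, in 3 experiments with 1 line.

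Experiment numbers were checked for pairing: deviations from the group means correlated between libraries of the same experiment at r of 0.154 to 0.427 (18 pairs, 9477 genes) and between libraries of different experiments at -0.314 to -0.00401 (36 pairs). The model was tested on simulated data for the interaction with all 12216 genes, in which it called 28 of 50 genes changed by -0.5 and 27 of 50 changed by 0.5 on the log2 scale, and 38 of 49 changed by -1 and 40 of 50 changed by 1. Far more genes were called there than in these data, which loosens the cut-off on unadjusted p, and no single library was shifted. These shares may thus overstate what could be detected here.

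Members and lists were chosen with earlier results of these data known. The genes named are those called, the 10 on each side with the smallest p among genes of at least 1 CPM with 1 direction in 3 experiments, the study's RT-qPCR genes and control targets, the 5 with the smallest p for each average effect, and up to 4 members of a list described. *SOBP* and *TNFRSF11B* were named after their values were seen, as the genes next to the threshold. Alternatives were other scalings, filters, thresholds and blocks, DESeq2 1.42.0, limma-voom (limma 3.58.1), the undivided values, and leaving out libraries or experiments. DESeq2 on the undivided values was added after seeing the data. Of 28 symbols given to 2 rows, each row was kept apart. A gene and a gene list are not reported here.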

Additional observations from a re-analysis of the deposited data

Results flagged for a closer look

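In each of these genes the effect of 1 agent differed with the other agent present, by edgeR's test of the interaction with Benjamini-Hochberg adjustment, and each had 1 direction in the 3 experiments. Those above the sum, with log2 interactions, were *SLC16A6* (0.53, adjusted p = 0.0037), *WNT5A* (0.35, adjusted p = 0.005), *CXCL1* (0.72, adjusted p = 0.005), *SASH1* (0.73, adjusted p = 0.005), *TSLP* (0.61, adjusted p = 0.0064), *ABCA1* (0.81, adjusted p = 0.0072), *MRPS6* (0.42, adjusted p = 0.0087), *SLC5A3* (0.49, adjusted p = 0.011), *FAM107B* (0.47, adjusted p = 0.011), *IL7R* (0.65, adjusted p = 0.011), *ETV1* (0.44, adjusted p = 0.028), *RPS25* (0.53, adjusted p = 0.031), *STC1* (0.76, adjusted p = 0.043) and *AMIGO2* (0.35, adjusted p = 0.0499). Below the sum were *LBH* (-0.37, adjusted p = 0.0037), *FAM38B* (-0.42, adjusted p = 0.023), *NPC1* (-0.35, adjusted p = 0.026) and *PTGS1* (-0.46, adjusted p = 0.026).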

How the results depend on the processing

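The 18 called genes kept their direction under every log2 setting tried, which the choice of genes by their call in these libraries made likely. On the CPM scale *SLC16A6* (-13.02 CPM) and *STC1* (-81.6 CPM) changed sign. Without the replicate block, edgeR called 0 genes above and 0 below, 1791 for 1,25(OH)2D3 alone, 1013 for Wnt3A alone, 1642 for 1,25(OH)2D3 with Wnt3A and 1127 for Wnt3A with 1,25(OH)2D3, and 88.1% of intervals lay within 1 of zero. DESeq2 with the replicate block called 4 and 1, then 1620, 988, 1466 and 1105. DESeq2 with no replicate block called 0 and 0 (162 at an unadjusted p under 0.05), then 1314, 791, 1173 and 883. At adjusted p under 0.01 the counts were 7 and 1, with 1897 for 1,25(OH)2D3 alone and 1747 with Wnt3A. DESeq2 on the undivided values, which counts each read 40 times, called 738 and 655. Its medians by direction of the average effects were -0.11 (1,25(OH)2D3 higher, Wnt3A lower), -0.097 (the mirror group), 0.18 (both higher) and 0.092 (both lower). With every gene read in at least 3 libraries, 7 genes were called below, and the share of intervals was 68.5%, against 99.2% at a minimum count of 50 and 88.6% on undivided values in edgeR.

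The axon guidance median was -0.063 with RLE scaling and with upper-quartile scaling, -0.062 with library totals, -0.049 with every gene read in at least 3 libraries, -0.053 at a minimum count of 50, -0.059 and -0.063 in DESeq2 with and without the block, -0.068 in limma-voom, and -0.058 and -0.053 on undivided values in edgeR and DESeq2. The Wnt ligand median was -0.22 with every gene read in at least 3 libraries, -0.22 and -0.26 in DESeq2 with and without the block, 0.051 in limma-voom and -0.21 in DESeq2 on undivided values. The histone median was 0.24, 0.25, 0.31 and 0.39 in those settings, limma-voom aside. The cause of these shifts was not tested.

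With 1 library or experiment left out, calls ranged between 0 and 24 above and 0 and 10 below, between 1822 and 2989 for 1,25(OH)2D3 alone, 1020 and 1772 for Wnt3A alone, 1458 and 2990 for 1,25(OH)2D3 with Wnt3A and 1142 and 1991 for Wnt3A with 1,25(OH)2D3. The lowest counts came without experiment 2. Interval shares ranged between 84.3% and 87.2%. Medians ranged between -0.064 and -0.0018 (1,25(OH)2D3 higher, Wnt3A lower), 0.025 and 0.071 (the mirror group), -0.036 and 0.037 (both higher) and 0.0047 and 0.052 (both lower). By list they ranged between -0.17 and 0.11 for Wnt ligands, -0.13 and -0.0099 for basement membrane, -0.11 and -0.00015 for ADAM proteases, 0.035 and 0.11 for plasminogen and serpins, 0.083 and 0.24 for histones, -0.16 and -0.032 for axon guidance and 0.034 and 0.12 for cholesterol genes. Depth limited genes under 10 CPM most.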
